A study of Mus musculus with 5 samples.

Results

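The interleukin-1 family ligands and receptors described here are 7 genes chosen by symbol: the ligands Il1a, Il1b and Il1f9, the receptor antagonist Il1rn, and the receptor chains Il1r1, Il1r2 and Il1rap. All 7 were found among the 32285 genes counted. They were followed in single neutrophils sorted from bone marrow, blood and lung of female, wild-type C57BL/6J mice in 3 conditions: naive mice, mice bearing AT3 tumours, and mice bearing AT3-gcsf tumours. AT3 is a mouse mammary carcinoma line, and AT3-gcsf is by its name a form of it that carries G-CSF, the growth factor of the neutrophil lineage. The sources used here do not give the ages or number of mice, or how tumours were established.

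Each condition filled 1 lane of the 10x Chromium system, with 3 hashtag-labelled samples mixed in it, so condition and lane cannot be told apart, and the data hold no measure of variation from mouse to mouse. No p-value was computed. The hashtags are known by number only, and none is tied to a tissue in the labels, so the populations below carry the tag names MHTO3, MHTO4 and MHTO5 (naive), MHTO7, MHTO8 and MHTO10 (AT3), and MHTO3, MHTO4 and MHTO5 (AT3-gcsf). The same number in different libraries names a reagent, not a matched tissue. Populations mixed in 1 lane are parts of that library rather than replicates of its condition.

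Interleukin-1 alpha and interleukin-1 beta are inflammatory cytokines that bind the same receptor, Il1r1, which recruits the accessory chain Il1rap and signals through Myd88 and NF-kB. The pathway has brakes at the same level: Il1rn encodes an antagonist that occupies Il1r1 without signalling, and Il1r2 encodes a decoy receptor that binds interleukin-1 and does not signal. Il1b is made as an inactive precursor that is cut by caspase-1 in inflammasomes or by neutrophil serine proteases. Il1f9 encodes IL-36 gamma, a related cytokine that signals through another receptor with the shared chain Il1rap. Neutrophils are known as a source of interleukin-1 beta and as cells rich in the decoy receptor.

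The genes lie in clusters (GENCODE positions on GRCm38, the mm10 build). Il1b (ENSMUSG00000027398) lies on chromosome 2 at 129364570 to 129371139, minus strand, and Il1a (ENSMUSG00000027399) at 129299610 to 129309972 on the same strand, 54597 bases away. Il1f9 (ENSMUSG00000044103) and Il1rn (ENSMUSG00000026981) lie on the plus strand of the same chromosome, at 24186476 to 24193568 and 24336853 to 24351494. The receptor genes Il1r2 (ENSMUSG00000026073; 40074079 to 40125231) and Il1r1 (ENSMUSG00000026072; 40225080 to 40317257) are neighbours on chromosome 1, and Il1rap (ENSMUSG00000022514) lies on chromosome 16 at 26581704 to 26730117. An antisense gene, Il1bos, overlaps Il1b by 1243 bases. Il1bos lies on the opposite strand to Il1b, so reads in the overlap can be told apart only if counting used strand. The sources used here do not say whether it did. Il1bos itself reached at most 20.7 CPM (naive MHTO5), where CPM is a gene's UMIs (unique molecular identifiers, counted transcripts) per 1000000 UMIs of the cells summed.

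The promoters of Il1b, Il1a, Il1rn and Il1r2, the 4 members at least 2-fold higher in the same naive population (MHTO5) than in both others, are shown with the motif matches found in them. Each is the 250 bases before a RefSeq transcript start (GRCm38.p6), 5′ to 3′ on the gene's own strand. Capitals mark matches, on either strand, to a TATA box (TATAAA), an AP-1 site (TGACTCA), an NF-kB site (GGG and TTTCC with any 2 bases between them) or an E-box (CACGTG).
Il1b, chr2:129371140-129371389, minus strand: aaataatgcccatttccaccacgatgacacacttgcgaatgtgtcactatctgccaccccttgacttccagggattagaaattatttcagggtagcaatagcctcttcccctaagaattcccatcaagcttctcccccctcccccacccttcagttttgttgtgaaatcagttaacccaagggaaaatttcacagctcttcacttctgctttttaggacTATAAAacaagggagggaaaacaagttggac
Il1a, chr2:129309973-129310222, minus strand: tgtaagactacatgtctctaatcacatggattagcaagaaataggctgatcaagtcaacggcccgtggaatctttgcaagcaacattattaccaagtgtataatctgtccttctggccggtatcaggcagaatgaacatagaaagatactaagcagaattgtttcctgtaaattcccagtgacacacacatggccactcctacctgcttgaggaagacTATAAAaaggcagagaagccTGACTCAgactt
Il1rn, inner start, chr2:24345121-24345370, plus strand: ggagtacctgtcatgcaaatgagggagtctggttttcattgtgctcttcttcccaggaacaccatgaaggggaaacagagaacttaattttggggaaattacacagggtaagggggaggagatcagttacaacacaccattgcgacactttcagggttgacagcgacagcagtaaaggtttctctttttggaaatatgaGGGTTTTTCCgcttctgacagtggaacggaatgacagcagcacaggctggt
Il1r2, chr1:40085843-40086092, plus strand: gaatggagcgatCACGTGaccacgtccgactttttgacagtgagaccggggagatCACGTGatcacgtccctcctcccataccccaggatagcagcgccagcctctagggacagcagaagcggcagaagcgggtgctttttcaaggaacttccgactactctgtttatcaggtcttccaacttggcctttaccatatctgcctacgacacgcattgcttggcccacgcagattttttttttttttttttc
Counting back from the start, with the last base before it as -1, the TATA box of Il1b spans -31 to -26 and that of Il1a spans -32 to -27. Il1a also holds an AP-1 match at -12 to -6, and the inner Il1rn start an NF-kB match at -51 to -42. Of the other Il1rn windows, not printed, the outer one (chr2:24336610-24336859) holds an AP-1 match at -141 to -135 and the one at chr2:24345041-24345290 holds none of the motifs. The Il1r2 window, whose start lies inside the gene span given above, holds 2 E-box matches, at -238 to -233 and -195 to -190. All 7 members matched the RefSeq promoter table, with 10 windows between them. Of 32851 promoter windows of the same length, 12.4% hold the TATA box, 4.46% the AP-1 site, 1.41% the NF-kB site and 6.02% the E-box, so a match describes letters and is not evidence of a bound site.

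The libraries held 7738, 7840 and 10828 cell barcodes for naive, AT3 and AT3-gcsf, of which 7318, 7594 and 10153 cells were compared after filtering, with a median of 2773, 4793 and 7590 UMIs per cell. Populations held 1985 to 3714 cells. All 15 neutrophil markers were detected in the compared cells, and their sum ran from 130347 to 470047 CPM over the 9 populations. Markers of other cell types were low but did not run evenly. Endothelial or stromal markers (2 of 7 reached 20 CPM) summed to 231 in naive MHTO5, 165 in AT3 MHTO8 and 49.97 in AT3-gcsf MHTO5, against at most 8.65 in the other populations. B cell markers (1 of 6) summed to 111 to 218 in naive, 24.6 to 41.8 in AT3 and 7.58 to 15.6 in AT3-gcsf populations, and epithelial markers (4 of 8) to 109 to 289, 74.7 to 157 and 21.5 to 29.1. Erythroid markers (all 4) summed to 239 to 2790 in naive, 26.5 to 657 in AT3 and at most 0.717 in AT3-gcsf populations. T or NK cell markers (1 of 9) reached at most 92.9, monocyte or macrophage markers (3 of 9) 191, dendritic cell markers (0 of 5) 13.4 and eosinophil, basophil or mast cell markers (0 of 6, Epx at 0) 7.15. Early precursor markers (5 of 5), which belong to the neutrophil lineage, summed to 397 in naive MHTO4 and 345 in AT3-gcsf MHTO4. Libraries shared 16 to 20 cell barcodes, at most 0.263% of a library.

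Levels below are CPM with exact Poisson 95% intervals in brackets. Shares of cells with at least 1 UMI depend on depth, so they are given also after thinning every cell to 1000 UMIs, which leaves out 194, 46 and 60 shallower cells of naive, AT3 and AT3-gcsf. Intervals cover counting error only.

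Il1b, the secreted ligand, differed widely among the populations of every library. In naive cells it was at 3270 CPM in MHTO3, 242 in MHTO4 and 13187 (13109 to 13265) in MHTO5. In the AT3 library it was at 407 CPM in MHTO7, 14461 (14409 to 14514) in MHTO8 and 3293 in MHTO10. In AT3-gcsf cells it was at 1105 CPM in MHTO3, 470.0 in MHTO4 and 9512 (9480 to 9544) in MHTO5. Each library thus had 1 population far above and 1 far below the other, and the population ranges of the 3 libraries overlapped. Only AT3 MHTO10 and naive MHTO3 were neighbours in the order of the 9 levels with overlapping intervals.

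**Figure D1:**
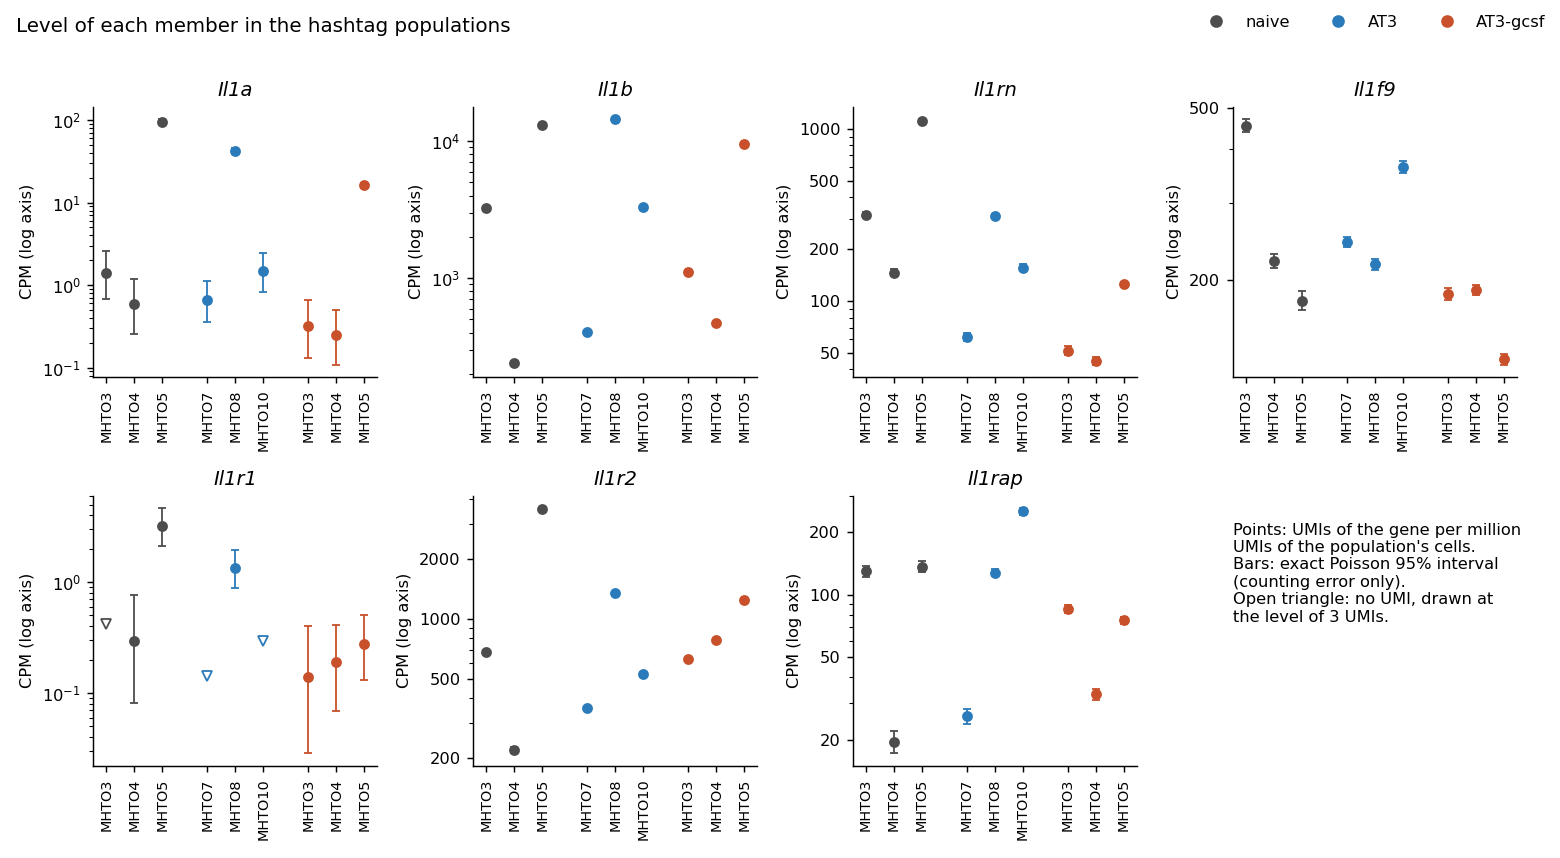
Level of each member in the 9 hashtag populations, as CPM on a log axis, coloured by library. Points are sums over the cells of a population, bars are exact Poisson 95% intervals, and open triangles mark populations with no UMI, drawn at the level of 3 UMIs. Il1a, Il1b and Il1r2 were highest in naive MHTO5, AT3 MHTO8 and AT3-gcsf MHTO5 within their libraries, while Il1f9 was lowest there.

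The high level of Il1b was spread over most cells of those populations. After thinning to 1000 UMIs, 96.2% of naive MHTO5, 96.8% of AT3 MHTO8 and 95.9% of AT3-gcsf MHTO5 cells had an Il1b UMI (98.5%, 99.6% and 99.6% unthinned). The tenth of cells with the most Il1b UMIs held 25.9%, 21.4% and 22.1% of them. In AT3 MHTO8 the median cell gave 17.7 of every 1000 UMIs to Il1b, and the range from the 5th to the 95th percentile was 1.75 to 38.8. The median was 14.1 in naive MHTO5 and 10.4 in AT3-gcsf MHTO5. A single cell held up to 485 Il1b UMIs (AT3-gcsf MHTO5).

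**Figure D2:**
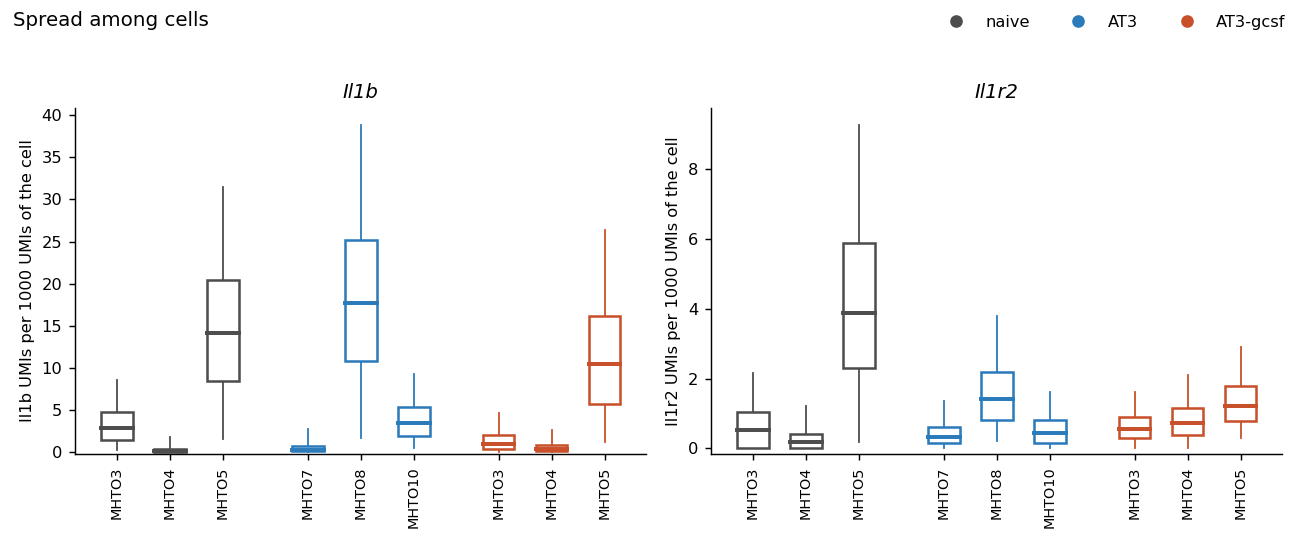
Spread of Il1b and Il1r2 among the cells of each hashtag population, as UMIs of the gene per 1000 UMIs of the cell. Boxes span the 25th to the 75th percentile with the median as a thick line, and thin lines run from the 5th to the 95th percentile. For Il1b, the boxes of naive MHTO5, AT3 MHTO8 and AT3-gcsf MHTO5 lie above those of the other populations of their library.

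The lowest Il1b level was set beside cells with lymphocyte markers. Cells with at least 1% of UMIs from B, T or NK cell markers, which were left out of all comparisons, carried Il1b at 819 CPM in the naive library (40 cells, median 3902 UMIs), and 25.6% of them had an Il1b UMI after thinning. Naive MHTO4, with 24.6% after thinning, 65.8% unthinned and a median of 5437 UMIs, did not exceed them, so no expression above that level is read from the population as a whole. The lymphocyte-marker cells held more Il1b than naive MHTO4 (819 against 242 CPM), so they are a comparison and not a floor. Why they held it was not tested, and no doublet caller was run. Il1b in naive MHTO4 was not even: the cells poorest in secondary granule transcripts, 1 of 3 equal classes, had 671 CPM and the richest 113. AT3 MHTO7 (36.9%) and AT3-gcsf MHTO4 (38.7%) stood above the lymphocyte-marker cells of their libraries (23.8% and 21.3%), but those were only 10 and 4 cells. Unthinned, 93.7% of AT3 MHTO7 and 86.7% of AT3-gcsf MHTO4 cells had an Il1b UMI, against 70% (34.7 to 93.3) and 50% (6.76 to 93.2) of those cells.

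Il1a, the other ligand of Il1r1, was concentrated in the same populations at far fewer UMIs. It was at 95.8 CPM (89.3 to 103) in naive MHTO5, against 1.402 in MHTO3 and 0.593 in MHTO4. AT3 MHTO8 had 42.6 CPM (39.8 to 45.6), against 0.661 in MHTO7 and 1.48 in MHTO10. AT3-gcsf MHTO5 had 16.1 CPM (14.8 to 17.5), against 0.322 in MHTO3 and 0.252 in MHTO4. The other 6 populations rest on 7 to 15 Il1a UMIs each, and their neighbours in the order overlap in interval. Within the high populations, few cells carried it: 13.1% of naive MHTO5, 9.62% of AT3 MHTO8 and 6.52% of AT3-gcsf MHTO5 cells had a UMI (6.66%, 3.40% and 1.55% after thinning). No Il1a UMI was found in the 40 lymphocyte-marker cells of the naive library, which allows a share of up to 8.81%. Cells with under 2% of UMIs from neutrophil markers held 14.9% of the naive Il1a UMIs, 2.80% of the AT3 and 1.84% of the AT3-gcsf.

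Il1f9, the IL-36 gamma gene, had a different order within libraries. It was at 455 CPM in naive MHTO3, 221 in MHTO4 and 179 in MHTO5. AT3 populations had 245 CPM (MHTO7), 217 (MHTO8) and 364 (MHTO10). AT3-gcsf populations had 185 CPM (MHTO3), 189 (MHTO4) and 131 (MHTO5). Its lowest level in each library was thus in the population with the most Il1b. Its highest level in naive (MHTO3) and AT3 (MHTO10) was not in the population with the least Il1b, so it did not simply run opposite to Il1b. In the naive library 34.8%, 25.2% and 15.6% of MHTO3, MHTO4 and MHTO5 cells had an Il1f9 UMI after thinning (58.0%, 61.3% and 33.9% unthinned), against 2.79% (10% unthinned) of the lymphocyte-marker cells.

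Il1rn, the receptor antagonist, had the largest differences in CPM ratio between library sums among the members measured, though with TMM scaling Il1b (1.06) and Il1rap lay farther from 0 than Il1rn (-0.78) in AT3 against naive. Naive populations had 316 CPM (MHTO3), 146 (MHTO4) and 1116 (MHTO5; 1094 to 1139). AT3 populations had 62.0 CPM (MHTO7), 312 (MHTO8) and 156 (MHTO10). AT3-gcsf populations had 51.3 CPM (MHTO3), 44.9 (MHTO4) and 126 (MHTO5; 122 to 129). The highest AT3-gcsf population was below the lowest naive one, while AT3 overlapped both. After thinning, 27.6%, 17.3% and 54.6% of naive cells (MHTO3, MHTO4, MHTO5) had an Il1rn UMI, against 5.94%, 5.24% and 12.6% of AT3-gcsf cells (MHTO3, MHTO4, MHTO5). Unthinned, the shares were 49.8%, 55.5% and 76.2%, against 28.9%, 29.1% and 49.6%. Lymphocyte-marker cells of the naive library had Il1rn at 28.2 CPM, with a UMI in 10% of cells, and 2.202% after thinning.

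Il1r2, the decoy receptor, was detected in most cells of every population. It was at 682 CPM in naive MHTO3, 220 in MHTO4 and 3552 (3512 to 3593) in MHTO5. AT3 populations had 358 CPM (MHTO7), 1349 (MHTO8) and 528 (MHTO10). AT3-gcsf populations had 629 CPM (MHTO3), 787 (MHTO4) and 1248 (MHTO5). The naive populations spanned 220 to 3552 CPM, and all AT3 and AT3-gcsf populations lay within that range. Naive lymphocyte-marker cells carried Il1r2 at 181 CPM from 32 UMIs, close to the 220 CPM of naive MHTO4. Thinned shares ran from 24.4% (naive MHTO4) to 90.1% (naive MHTO5), and unthinned ones from 68.3% to 98.3% over the 9 populations, against 13.1% thinned and 37.5% unthinned in the naive lymphocyte-marker cells.

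Il1rap, the accessory chain shared by receptors of the family, followed a pattern of its own. It was at 129 CPM in naive MHTO3, 19.4 in MHTO4 and 137 in MHTO5. AT3 populations had 26.0 CPM (MHTO7), 128 (MHTO8) and 252 (MHTO10; 243 to 262), the last being the highest of all 9. AT3-gcsf populations had 85.7 CPM (MHTO3), 33.1 (MHTO4) and 75.3 (MHTO5). In each library the population with the least Il1b had the least Il1rap. The naive MHTO4 level did not exceed that of the naive lymphocyte-marker cells, 22.6 CPM from 4 UMIs, while more of its cells had a UMI (2.82% thinned and 10.4% unthinned, against 0.936% and 5%).

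Il1r1, the signalling receptor, was close to absent. It had 0, 4 and 27 UMIs in naive MHTO3, MHTO4 and MHTO5, 0, 27 and 0 in AT3 MHTO7, MHTO8 and MHTO10, and 3, 6 and 10 in AT3-gcsf MHTO3, MHTO4 and MHTO5. A count of 0 allows a level of up to 0.421, 0.142 and 0.295 CPM (3 UMIs) in naive MHTO3, AT3 MHTO7 and AT3 MHTO10. Of these few UMIs, 74.2% of the naive, 81.5% of the AT3 and 73.7% of the AT3-gcsf came from the 156, 71 and 52 compared cells with under 2% of UMIs from neutrophil markers. Il1r1 UMIs therefore sat mostly in cells that carry few neutrophil transcripts, and endothelial or stromal markers were highest in the populations with 27, 27 and 10 UMIs.

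Within each library the members were also counted as higher in 1 population when they reached 20 CPM there and the log2 ratio, after adding 5 CPM, was at least 1 against both other populations. In naive, 6 of 7 members reached 20 CPM in a population, and 4 of them (Il1a, Il1b, Il1rn and Il1r2) were at least 2-fold higher in MHTO5, where 12.5% of all genes measured were. Il1f9 was at least 2-fold higher in naive MHTO3, where 4.1% of genes were. In AT3 MHTO8, 3 members (Il1a, Il1b and Il1r2) were higher, against 8.36% of genes, and Il1rn missed the threshold at a log2 ratio of 0.98 over MHTO10. In AT3-gcsf MHTO5, 2 members (Il1b and Il1rn) were higher, against 5.65% of genes. Il1r2 there lay 0.98 and 0.66 above MHTO3 and MHTO4 on the log2 scale, and Il1a stayed below 20 CPM. Over any population, 20.1% of genes in naive, 13.1% in AT3 and 5.87% in AT3-gcsf passed this rule. No member was higher in naive MHTO4 (3.5% of genes), AT3 MHTO7 (2.04%), AT3 MHTO10 (2.72%), AT3-gcsf MHTO3 (0.0275%) or AT3-gcsf MHTO4 (0.193%). These populations with the most Il1b also carried the most endothelial or stromal markers; leaving out the cells with under 2% neutrophil markers, a choice made after seeing the data, left the same 4 members higher in naive MHTO5, 4 in AT3 MHTO8 (Il1rn added) and the same 2 in AT3-gcsf MHTO5, while Il1f9 in naive MHTO3 no longer passed.

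Inflammatory genes chosen with earlier results of these data known had the same high populations. Cxcl2, a neutrophil-attracting chemokine, was at 6208 CPM in naive MHTO5, 5815 in AT3 MHTO8 and 4865 in AT3-gcsf MHTO5, and at 71.3 to 226 in the other 6 populations. Tnf, another inflammatory cytokine, was at 118, 51.9 and 33.0 CPM in the same populations, against at most 12.8. Nlrp3, the inflammasome sensor, was at 850, 444 and 251 CPM, against at most 222. No label ties these populations to a tissue, so whether they match between libraries is unknown. The values of these inflammatory genes are therefore read within a library and not from one library to another.

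Transcripts of ligand and brakes can be compared by UMI ratios, which do not depend on how a library is scaled. Protein and its activity were not measured. For each Il1rn UMI there were 10.4, 1.66 and 11.8 Il1b UMIs in naive MHTO3, MHTO4 and MHTO5. The AT3 populations had 6.56, 46.3 and 21.1 (MHTO7, MHTO8, MHTO10), and the AT3-gcsf populations 21.6, 10.5 and 75.7 (MHTO3, MHTO4, MHTO5). These ranges overlapped, and the population with the least Il1b had the lowest ratio in every library; in naive that is MHTO4, whose Il1b did not exceed the lymphocyte-marker cells. Summed over all compared cells, the ratio was 10.1 (9.93 to 10.3) in naive, 36.4 (35.6 to 37.1) in AT3 and 54.1 (52.8 to 55.4) in AT3-gcsf.

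The decoy receptor against the antagonist gave point values in a different range in each library; how many other gene pairs do so was not counted, and 20.3% to 41.1% of single genes did not overlap between libraries. For each Il1rn UMI there were 2.16, 1.51 and 3.18 Il1r2 UMIs in the naive populations (MHTO3, MHTO4, MHTO5). There were 5.78, 4.32 and 3.39 in the AT3 populations (MHTO7, MHTO8, MHTO10) and 12.3, 17.5 and 9.94 in the AT3-gcsf populations (MHTO3, MHTO4, MHTO5). Every AT3 value lay above every naive one, and every AT3-gcsf value above every AT3 one; AT3 MHTO10 (3.20 to 3.58) and naive MHTO5 (3.11 to 3.26) lay close, with overlapping intervals. The naive MHTO4 value rests on an Il1r2 level (220 CPM) close to that of the naive lymphocyte-marker cells (181 CPM). Over all compared cells the ratio was 2.77 in naive, 4.37 in AT3 and 11.8 in AT3-gcsf. Il1b per Il1r2 UMI, by contrast, ran from 1.10 to 4.79 in naive, 1.14 to 10.7 in AT3 and 0.597 to 7.62 in AT3-gcsf populations, with no separation of the libraries.

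**Figure D3:**
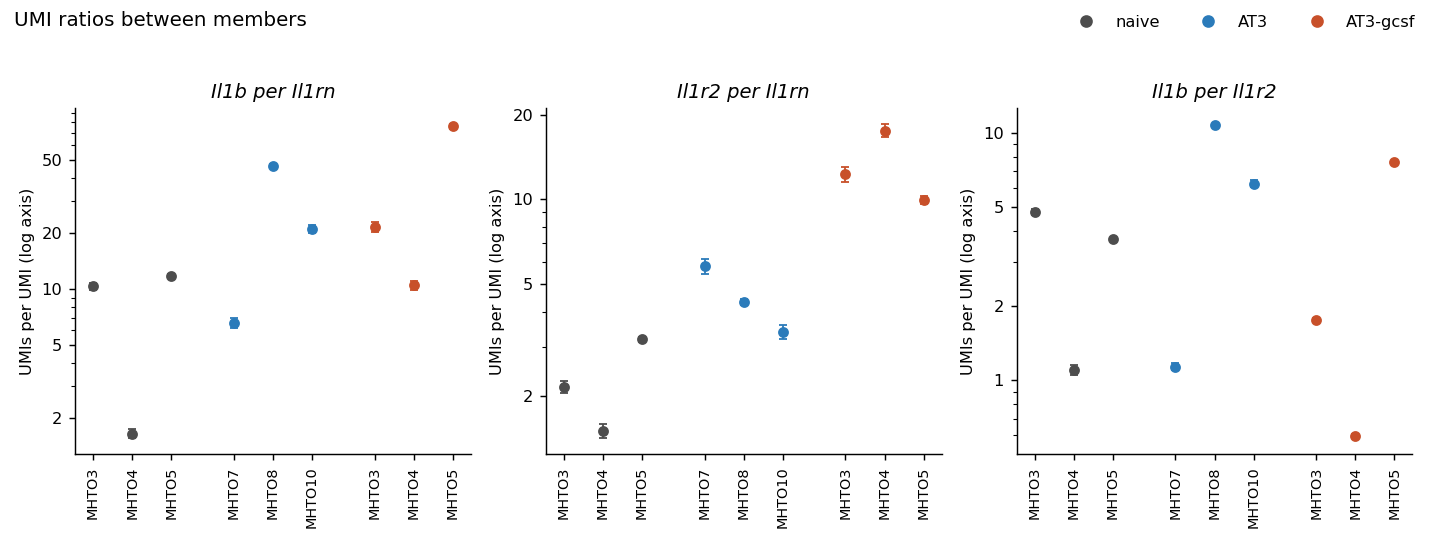
UMI ratios between members in the 9 hashtag populations, on log axes, with conditional binomial 95% intervals as bars. Il1r2 per Il1rn runs from 1.51 to 3.18 in naive, 3.39 to 5.78 in AT3 and 9.94 to 17.5 in AT3-gcsf, with overlapping intervals for naive MHTO5 and AT3 MHTO10, and the other ratios overlap.

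Between libraries, members were set side by side over all compared cells where the higher of both sums reached 20 CPM, and a size of 2-fold or more was called. In AT3 against naive, 6 members were measured and 1, Il1rn, was at least 2-fold lower, with 179 CPM (175 to 182) in AT3 and 468 (461 to 476) in naive and a log2 ratio of -1.37. Of all 4182 genes measured 8.13% were at least 2-fold apart (6.38% lower and 1.75% higher), with a median log2 ratio of -0.38. The populations of every measured member overlapped between these libraries, whereas 20.3% of genes did not overlap (18% with every AT3 population lower, 2.3% higher). Il1b had a log2 ratio of 0.46 (6498 against 4734 CPM), which ran from -1.81 without AT3 MHTO8 to 2.33 without naive MHTO5. Il1rap had 0.44 (-0.26 without naive MHTO4), and Il1a, Il1r2 and Il1f9 had log2 ratios of -0.58, -0.73 and -0.05. With TMM scaling Il1f9 had 0.54. That scaling aims to centre the bulk of genes, but the median of all genes measured with it was 0.20. Il1rn stayed lower in all 17 alternatives, but the 2-fold call ended without naive MHTO5 (-0.19), without AT3 MHTO7 (-0.84) and with TMM (-0.78), which called Il1b higher instead (1.06).

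In AT3-gcsf against naive, 2 of 6 members measured were at least 2-fold lower, where 25.7% of 4293 genes were at least 2-fold apart (21.4% lower and 4.24% higher) and the median log2 ratio was -0.43. Il1rn had 79.0 CPM (77.2 to 80.9) in AT3-gcsf, and its log2 ratio to naive was -2.49. It stayed at least 2-fold lower in all 17 alternatives run, with -1.32 without naive MHTO5 as the smallest difference. Every AT3-gcsf population was below every naive one, which 33.1% of genes showed (41.1% did not overlap in either direction, 7.99% with every population higher). With each population scaled by its own TMM factor, an alternative added after seeing the data, the Il1rn ranges did overlap (50.3 to 174 in AT3-gcsf, 134 to 709 in naive). Il1a had 6.67 CPM (6.14 to 7.22) in AT3-gcsf and 28.4 (26.5 to 30.4) in naive. Its log2 ratio was -1.52, and this call rests on naive MHTO5: without that population the log2 ratio was 0.99. Il1a also missed the call with TMM scaling (-0.88) and when cells under 10% neutrophil markers were left out, where the log2 ratio was -1.01 with both sums under 20 CPM; cells under 2% neutrophil markers held 14.9% of its naive UMIs. The other members had log2 ratios of -0.15 (Il1b), -0.68 (Il1f9), -0.47 (Il1r2) and -0.33 (Il1rap). All 4 were positive with TMM scaling, where the median of all genes was also positive (0.45). Erythroid, B cell, T or NK cell, dendritic cell and epithelial markers were also lower in every AT3-gcsf than in every naive population, and their part in these differences was not tested.

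In AT3-gcsf against AT3, 5 members were measured and 1, Il1rn, was at least 2-fold lower at a log2 ratio of -1.13, where 5.06% of 3638 genes were at least 2-fold apart (3.13% lower and 1.92% higher) and the median was -0.04. This call ended without AT3 MHTO8 (-0.21), AT3-gcsf MHTO3 (-0.98) or AT3-gcsf MHTO4 (-0.84) and with TMM (-0.87). Il1f9 had a log2 ratio of -0.63, and each AT3-gcsf population (131 to 189 CPM) was below each AT3 one (217 to 364), as for 9.7% of genes (11.5% had every population higher, and 21.2% did not overlap either way). Il1b was at -0.60, Il1rap at -0.77 and Il1r2 at 0.26. The 3 comparisons share libraries and are not independent.

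**Figure D4:**
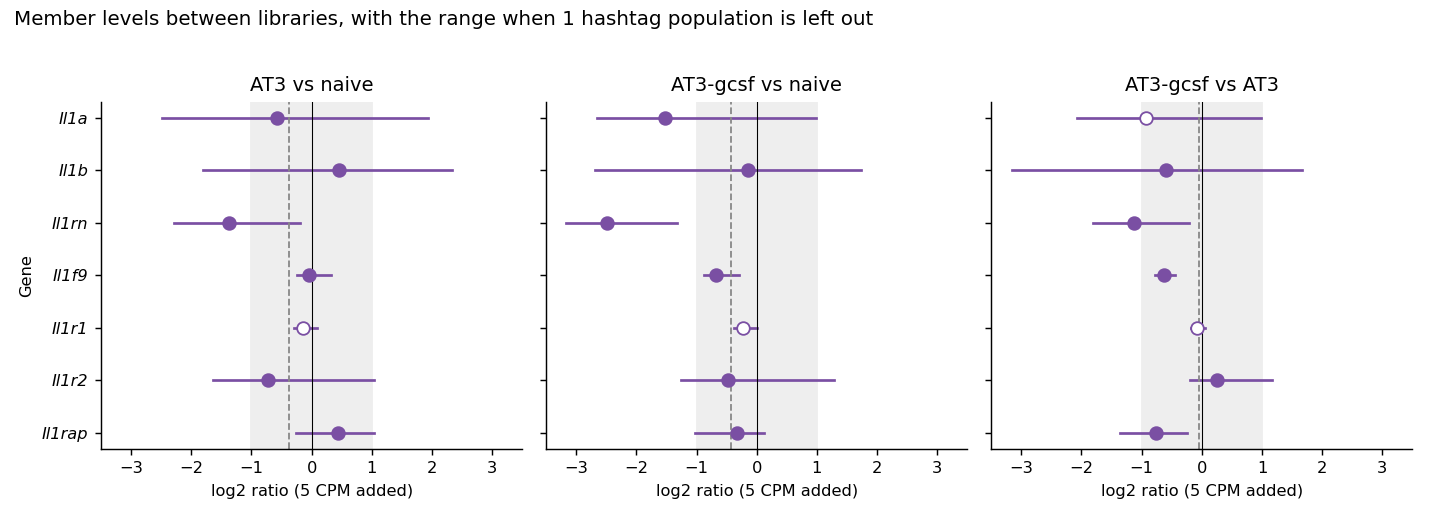
Log2 ratios of the 7 members between libraries, over all compared cells with 5 CPM added. Open points mark members below 20 CPM in both sums, lines give the range when 1 hashtag population is left out, the grey band marks less than 2-fold and the dashed line the median of all genes measured. Il1rn lies left of 0 over its whole range in all 3 panels, while the ranges of Il1a, Il1b and Il1r2 cross 0.

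These differences moved with the scaling. With TMM factors the median of all genes moved by 0.57 (AT3 against naive), 0.88 (AT3-gcsf against naive) and 0.26 (AT3-gcsf against AT3). It then lay at 0.20, 0.45 and 0.22, so it was above 0 in each. Il1rn then had log2 ratios of -0.78, -1.65 and -0.87. Of 3752 genes measured with TMM in AT3 against naive, 199 were at least 2-fold higher and 38 lower. These counts were 730 and 177 of 4130 in AT3-gcsf against naive, and 130 and 63 of 4020 in AT3-gcsf against AT3. Il1b went from 0.46 to 1.06 in AT3 against naive and turned from -0.15 to 0.72 in AT3-gcsf against naive. Il1f9, Il1r2 and Il1rap also turned positive in the latter (0.18, 0.40 and 0.48). These 3 values lay below or near the median of all genes there (0.45). Among measured genes, the higher ones made up 21.5% of the calls in AT3 against naive and 84.0% with TMM, 16.5% and 80.5% in AT3-gcsf against naive, and 38.0% and 67.4% in AT3-gcsf against AT3. In UMIs per cell, with no scaling, Il1rn had 1.86, 1.22 and 0.699 (naive, AT3, AT3-gcsf) while Il1b had 18.8, 44.2 and 37.8 and Il1r2 5.15, 5.31 and 8.28; depth per cell was higher along the same order, and sequencing depth and RNA per cell cannot be told apart.

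Members were not spread evenly along the granule programme. Cells of each population were put into 3 equal classes by the share of their UMIs from secondary granule genes, a programme of immature neutrophils. Taking classes within populations was chosen after seeing the data. Rich and poor are relative to the population. Median granule shares of the poorest and richest classes were 0.693% and 10.8% in naive MHTO4, but 0.220% and 0.697% in naive MHTO5. In naive MHTO3 they were 0.354% and 0.910%. Il1b was lower in the class richest in granule transcripts than in the poorest class in 8 of the 9 populations: 156 against 1287 CPM in AT3 MHTO7, 179 against 1135 in AT3-gcsf MHTO4, 5896 against 15064 in AT3-gcsf MHTO5 and 9620 against 18765 in AT3 MHTO8. Naive MHTO5, whose classes differed little in granule share, was the exception, at 13389 against 11307. Depth ran along the same axis (medians of 4877 and 16196 UMIs in the poorest and richest classes of AT3 MHTO7), and Cxcl2 was also lower in the richest class in every population but naive MHTO5. With the granule genes themselves left out of the totals, the values were 172 against 1298 in AT3 MHTO7 and 185 against 1141 in AT3-gcsf MHTO4. These richest classes lay below the lymphocyte-marker cells of their libraries, at 265 CPM (12 UMIs) in AT3 and 288 (4 UMIs) in AT3-gcsf. In naive MHTO4 the richest and poorest classes (113 and 671 CPM) both lay below such cells (819). The size of these differences is therefore uncertain.

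Il1rn had the same order, at 38.4 against 109 CPM in AT3 MHTO7 and 72.4 against 215 in AT3-gcsf MHTO5, and only slightly in naive MHTO3 (303 against 322) and naive MHTO5 (1017 against 1037). Il1rap was at 145 CPM in the granule-rich class of AT3 MHTO10 and 378 in the granule-poor one. Il1r2 was more even in AT3-gcsf, at 704 against 844 CPM in MHTO4 and 1135 against 1357 in MHTO5. It was not even in AT3 MHTO7 (206 against 610) or naive MHTO4 (127 against 383). The granule-rich class was the higher one in naive MHTO5 (3922 against 2772 CPM) and naive MHTO3 (700 against 618). In AT3 MHTO10 it was higher by little (517 against 496), with overlapping intervals. Il1f9 was at 72.1 against 419 CPM in naive MHTO4 and at 131 against 120 in AT3-gcsf MHTO5.

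Some members occurred more often in the same cells. Among thinned naive MHTO5 cells, 68.2% of those with an Il1a UMI had an Il1rn UMI, against 53.6% of those without. In AT3 MHTO8 the shares were 37.5% and 26.8%, and in AT3-gcsf MHTO5 24.8% and 12.4%. Il1r2 was found in 93.4% of naive MHTO5 cells with Il1rn and 86.2% of those without, and in 76.2% and 70.7% in AT3 MHTO8. The share with Il1r2 was higher among cells with Il1rn in all 9 populations, though by little in naive MHTO3 (46.7% against 45.7%), AT3 MHTO10 (40.4% against 39.6%) and AT3-gcsf MHTO3 (45.6% against 44.4%). These are shares of cells in 1 library each and are given with no test.

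Over the 9 populations, the genes whose log2(CPM + 5) ran most like each member were taken from 5193 genes that reached 20 CPM in at least 1. For Il1b they were Dusp16 (Pearson r 0.97), Pnrc1 (0.97) and Jund (0.97). Il1rn ran most like Chd2, Elmsan1 and Fbxo11 (r 0.995 each), and Il1r2 most like Sra1 (0.98), Relb (0.98) and Vps29 (0.98). Among the members, r was 0.83 for Il1b with Il1r2, 0.82 for Il1a with Il1b, 0.71 for Il1b with Il1rn and -0.10 for Il1b with Il1f9. The points share libraries, lanes and depth, so these values are descriptions of 9 sums.

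The wider pathway was read from 51 other genes, ordered by role. Calls with TMM scaling, added after seeing the data, are given beside each group. Of 7 other ligands or ligand-binding proteins none reached 20 CPM in a library sum. Il18, the ligand activated by the same caspase as Il1b, was at 11.2 CPM in naive (populations 3.41 to 23.7), 6.19 in AT3 and 9.07 in AT3-gcsf. Among 6 other receptors only Il18rap, the accessory chain of the Il18 receptor, was measured. It was at least 2-fold lower in AT3-gcsf (41.1 CPM, populations 37.9 to 44.6) than in naive (142, populations 113 to 204). AT3 had 79.4 CPM. Of all genes, 21.4% were at least 2-fold lower in AT3-gcsf against naive. Every AT3-gcsf population was below every naive one for 33.1% of genes. The log2 ratio of Il18rap was -1.68, and -0.86 with TMM. Il1rl1, the Il33 receptor, was at most at 5.86 CPM in a library sum (11.4 in a population), and Sigirr, an inhibitory receptor of the family, at 1.79 (3.81 in a population).

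Genes of processing and release did not move one way. Of 9 measured in AT3-gcsf against naive, 2 were at least 2-fold higher (Casp1 and Casp4) and 2 lower (Nlrp3 and Elane), where 4.24% and 21.4% of all genes were, with a median of 0.05 against -0.43 over all genes. Casp1, which cuts the Il1b precursor, was at 67.4 CPM in AT3-gcsf and 60.0 in AT3 against 28.9 in naive. Every population of both tumour libraries (46.6 to 84.1) was above every naive one (24.99 to 37.4). Against naive, 7.99% of genes had every population higher in AT3-gcsf and 2.3% in AT3. Casp4, the caspase of the non-canonical inflammasome, was at 155 and 168 CPM against 69.6. Nlrp3 was at 118 CPM in AT3-gcsf and 208 in AT3 against 322 in naive, with overlapping populations. In AT3 against naive, 1 gene of 9 was higher (Casp4) and 3 were lower, where 1.75% and 6.38% of all genes were. The lower ones were all serine proteases of primary granules that can cut interleukin-1 precursors. Those 3 were Elane (4.53 against 86.6 CPM), Prtn3 (24.0 against 72.7) and Ctsg (4.74 against 27.0), transcripts of early neutrophil precursors, and the precursor marker sum was highest in naive MHTO4. In AT3-gcsf against AT3, 2 of 8 were higher, where 1.92% of all genes were. They were Elane and Prtn3, at 24.2 and 75.7 CPM. With TMM, Casp1 and Casp4 were called higher in both tumour libraries against naive, and Pycard was added in AT3-gcsf against naive. Nlrp3 was not called (-0.56), and of the proteases only Elane in AT3 against naive was still called lower (-2.75). Over all genes with TMM, 730 of 4130 were higher in AT3-gcsf against naive. In AT3 against naive, 199 of 3752 were higher and 38 lower.

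In the signal chain, 13 of 20 genes were measured in AT3-gcsf against naive, and 3 were at least 2-fold lower and 0 higher, with a median of -0.38; over all genes 21.4% were lower and the median was -0.43, so this count is near that of any genes. They were Irak2, a kinase of the receptor complex (24.0 against 57.8 CPM), Tab2, an adaptor of the Tak1 kinase (28.9 against 85.3), and Nfkb1, a subunit of NF-kB (53.1 against 133). For Tab2 and Nfkb1 every AT3-gcsf population was below every naive one, as for 33.1% of genes, and with TMM the Nfkb1 populations overlapped (55.9 to 77.3 against 60.1 to 166). Myd88, the adaptor of the receptor, was at 168 CPM in AT3-gcsf and 165 in AT3 against 113 in naive. Irak3, which restrains that complex, was at 25.7 and 26.1 CPM against 53.4. Its log2 ratios were -0.93 and -0.91 after adding 5 CPM and so were not called. Every population of both tumour libraries was below every naive one, as for 33.1% of genes in AT3-gcsf and 18% in AT3. AT3 against naive had 1 lower of 13 (Irak2, 21.1 CPM), where 6.38% of all genes were lower. AT3-gcsf against AT3 had 0 of 11 called, where 5.06% of all genes were. The signal chain calls rested on the scaling. With TMM, 0 of 14 were lower in AT3-gcsf against naive and 3 were higher. Of all 4130 genes measured with TMM there, 730 were higher and 177 lower, so this count too is near that of any genes. The 3 were Myd88 (1.38), Map3k8, a kinase of the MAP kinase pathway (1.19), and Jun, a subunit of AP-1 (1.06).

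The genes listed as feedback are induced by NF-kB or stress signals, and most of them dampen those signals. In AT3-gcsf against naive, 3 of 6 were at least 2-fold lower, where 21.4% of all genes were, with a median of -1.05 against -0.43. Tnfaip3, an inhibitor of NF-kB signalling, was at 21.1 against 105 CPM. It was also at least 2-fold lower than in AT3 (89.4 CPM), as were 3.13% of all genes. Nfkbiz, a nuclear co-regulator of NF-kB, was at 134 against 385 CPM, and Dusp1, a phosphatase of MAP kinases, at 667 against 1600.1. The populations of the libraries overlapped for these 3 genes, and naive populations reached up to 333, 1166 and 3316 CPM. In AT3 against naive 0 of 6 were called, where 8.13% of all genes were, with a median of -0.42 against -0.38 over all genes. With TMM, Tnfaip3 was the 1 feedback gene still called, at -1.30 against naive and -1.64 against AT3, while Nfkbiz (-0.63) and Dusp1 (-0.39) were not. Over all genes with TMM, 177 of 4130 were lower in AT3-gcsf against naive and 63 of 4020 in AT3-gcsf against AT3.

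**Figure D5:**
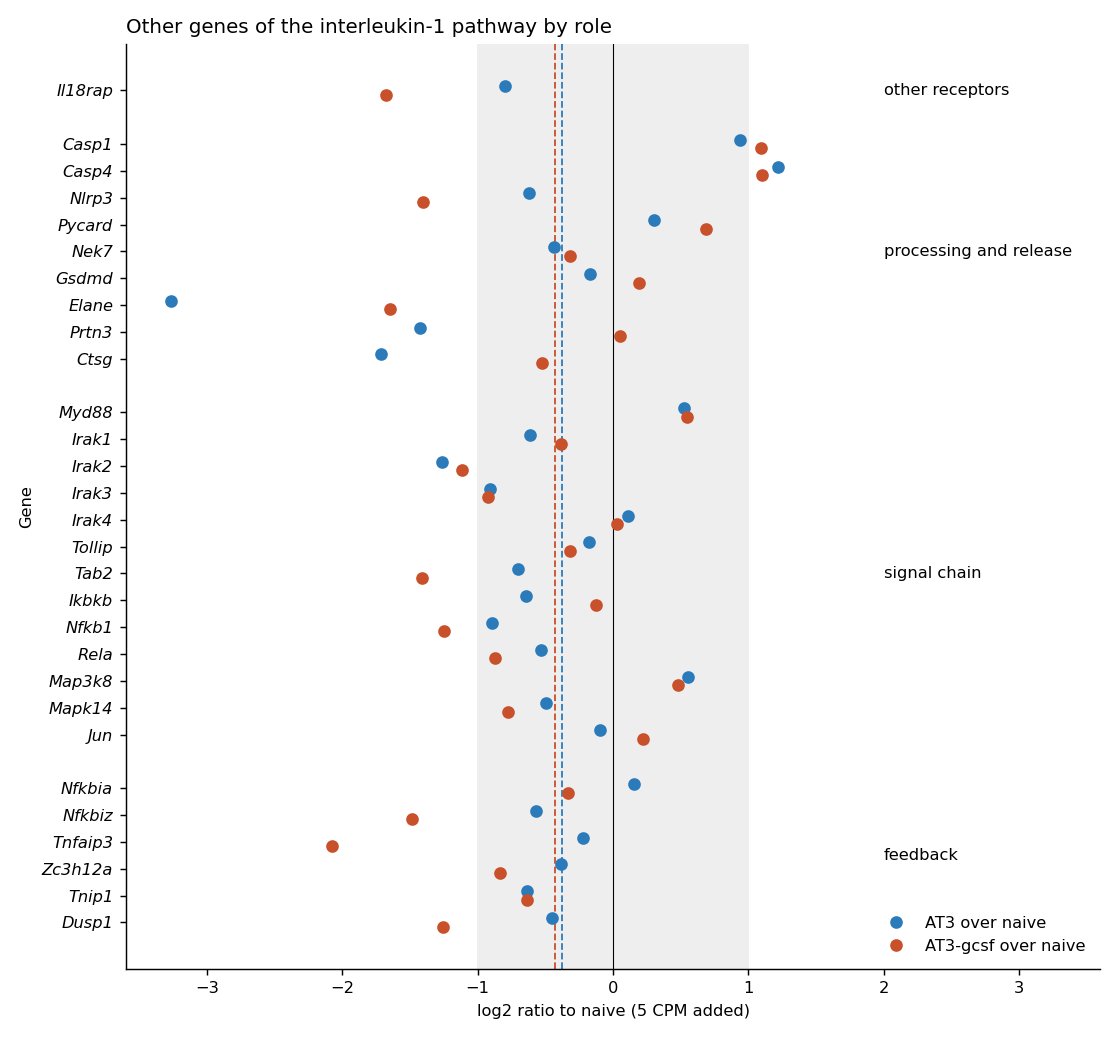
Log2 ratio to naive of the other pathway genes that reached 20 CPM, by role, for AT3 and AT3-gcsf over all compared cells with 5 CPM added. The grey band marks less than 2-fold and dashed lines the median of all genes measured in each comparison (-0.38 and -0.43). Casp1 and Casp4 of AT3-gcsf lie right of the band. Il18rap, Elane, Nlrp3, Irak2, Tab2, Nfkb1, Tnfaip3, Nfkbiz and Dusp1 of AT3-gcsf lie left of it. Of these, Casp1, Casp4 and Tnfaip3 stayed outside it with TMM. Pycard, Myd88, Map3k8 and Jun of AT3-gcsf lay right of it only with TMM.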

How the data were processed

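Gene expression and hashtag reads were collected from neutrophils sorted by flow cytometry, tagged with hashtag antibodies and run with the 10x V3 kit, per the labels' protocols. The deposited values are raw UMI counts per gene or hashtag and cell barcode. The submitters' processing notes name Cell Ranger 4.0.0, bcl2fastq 2.20.0.422 and mm10; the sources used here do not name the program that counted hashtags. Hashtag counts were joined to expression libraries by shared barcodes (94.1% to 97.4% of barcodes had a dominant tag in the joined file, against at most 0.672% in any other).

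Compared cells had a top tag with at least 20 counts and 80% of tag counts, at least 200 genes, under 10% mitochondrial UMIs and under 1% of UMIs from markers of other cell types. This left out 332, 206 and 635 barcodes (naive, AT3, AT3-gcsf) with no dominant tag, 30, 19 and 29 on quality and 58, 21 and 11 on markers. The tag rule removed doublets of differently tagged cells; no doublet caller was run. Counts were summed per population and library and scaled to CPM. Compared sums held 29019523, 51655399 and 89827723 UMIs. With 1 library per condition no test was possible; intervals are exact Poisson (levels), Clopper-Pearson (shares) and conditional binomial (ratios), at 95%, and cover counting error only. Ratios used 5 CPM added, a minimum of 20 CPM and a call at a log2 size of 1. Thinned shares are expected values for 1000 UMIs drawn without replacement.

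Members and gene lists were chosen with earlier results of these data known. Genes named are the 7 members, pathway genes called in a comparison or needed for a role, and the 3 genes most like Il1b, Il1rn and Il1r2. Alternatives changed scaling (TMM factors from edgeR 4.0.16), minimum, pseudocount, tag rule, marker rules, thinning and weights, or left out 1 population; leaving out cells under 2% neutrophil markers, TMM scaling of pathway genes and of single populations, and granule classes within populations were added after seeing the data. The scripts (Python 3.11.15, numpy 2.4.6, scipy 1.17.1, pandas 2.3.3, R 4.3.3) were tested on simulated data.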

Additional observations from a re-analysis of the deposited data

How the results depend on the processing

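The limits are those of 1 lane per condition: intervals cover counting error, and leaving out a hashtag population is no measure of spread between mice. No paired analysis was possible because hashtag populations carry no pairing across libraries in the labels and each condition had 1 library. In AT3 against naive, 1 member was called; the count ran from 1 to 4 with 1 population left out, with 4 without AT3 MHTO8, 3 without naive MHTO4 and 2 without AT3 MHTO7 or naive MHTO5. TMM scaling also gave 1, but Il1b higher in place of Il1rn lower. In AT3-gcsf against naive, 2 were called, and 1 (Il1rn) with TMM, with a 50 CPM minimum or without cells under 10% neutrophil markers; the range with 1 population left out was 2 to 5, with 5 without naive MHTO4. The log2 ratio of Il1a there ran from -2.66 (without AT3-gcsf MHTO5) to 0.99 (without naive MHTO5, the opposite direction). In AT3-gcsf against AT3, 1 was called, but 0 with TMM, 2 without the 20 most abundant genes in the totals (Il1a added), 3 after thinning to 1000 UMIs (Il1a and Il1rap added) and 2 with equal weight for populations (Il1rap added). The range with 1 population left out was 0 to 4, with 0 without AT3-gcsf MHTO3 or MHTO4 and 4 without AT3 MHTO7; without AT3 MHTO8 the 2 called were Il1b and Il1r2, both higher. Where calls differed by scaling, the shift of the median of all genes is given with the library comparisons; the cause of the other differences was not tested. Counts within libraries ran from 4 to 5 in naive, 2 to 4 in AT3 and 2 to 3 in AT3-gcsf, each within 1.5 times the count reported.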
